A study of Mus musculus with 7 samples.

Results

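Distal peaks with stepwise gain are H3K27ac peaks away from promoters whose signal was higher at 12 h than at 0 h and higher again at 48 h, after induction of NeuroD1 in mouse embryonic stem (ES) cells. They numbered 1034 of the 66841 merged H3K27ac peaks (1.55%), and 3.65% of the 28356 distal peaks with a mean of at least 20 reads per library. A peak counted as distal where no part of it lay within 2 kb of the transcription start site (TSS) of any protein-coding gene (mm10). The members, all of at least 20 reads in the mean, were selected on the counts themselves. In counts scaled to equal library totals, both 0 h libraries had to lie below both 12 h libraries, these below both 48 h libraries, and each step of the means had to be a rise of at least 25%. The time course of the members is therefore described below without a test.

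The cells were A2lox-NeuroD1, a single engineered line of A2Lox mouse ES cells that carries an HA-tagged NeuroD1 coding sequence under a doxycycline-inducible promoter. H3K27ac was profiled by ChIP-seq in uninduced cells (0 h, minusDox, no doxycycline) and after 12 h and 48 h with 500 ng/ml of doxycycline (plusDox), with 2 replicates, R1 and R2, per time point. Every group carried the same transgene, and no group received doxycycline without it. The cells had been moved off their feeder fibroblasts before the experiment. Nothing in the labels says that replicates came from separate cultures, so p-values measure the spread between these samples, which may be technical.

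H3K27ac is an acetylation of histone H3 that is deposited by the acetyltransferases p300 and CBP at active enhancers and promoters. Distal regions that carry it are widely used as a catalogue of active enhancers, which can lie far from the promoter they act on. NeuroD1 belongs to the proneural family of basic helix-loop-helix (bHLH) factors and drives neuronal differentiation. It binds E-boxes (CANNTG) as a heterodimer with an E protein, and CAGATG is the E-box form best known for proneural factors of this kind.

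The DNA under the peaks is shown first for 10 members that were named by their rise or by a gene list, chosen here for the range of E-boxes they hold, from several copies in a short stretch to none. Each sequence is the 150 bases of its peak with the most CAGATG and CAGCTG sites (mm10, plus strand, 5′ to 3′). Capitals mark CAGATG, its reverse complement CATCTG, and the palindrome CAGCTG.
Syt2 intron, chr1:134714259-134714408: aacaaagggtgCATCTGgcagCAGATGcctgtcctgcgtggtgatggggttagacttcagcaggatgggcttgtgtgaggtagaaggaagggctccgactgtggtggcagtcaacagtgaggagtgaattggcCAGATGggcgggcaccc
Dst, peak over an exon, chr1:34183571-34183720: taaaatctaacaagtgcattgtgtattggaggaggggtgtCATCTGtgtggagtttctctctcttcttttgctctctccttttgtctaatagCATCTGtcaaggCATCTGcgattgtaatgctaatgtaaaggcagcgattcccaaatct
Slc15a2 intron, chr16:36775776-36775925: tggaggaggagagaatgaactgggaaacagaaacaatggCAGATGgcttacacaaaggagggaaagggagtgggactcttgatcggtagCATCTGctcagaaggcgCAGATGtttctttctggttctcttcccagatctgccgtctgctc
Ebf2 intron, chr14:67242128-67242277: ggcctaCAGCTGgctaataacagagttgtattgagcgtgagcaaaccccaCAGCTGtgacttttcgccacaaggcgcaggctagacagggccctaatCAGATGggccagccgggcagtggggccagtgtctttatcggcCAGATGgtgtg
intergenic, nearest Cd40, chr2:165049911-165050060: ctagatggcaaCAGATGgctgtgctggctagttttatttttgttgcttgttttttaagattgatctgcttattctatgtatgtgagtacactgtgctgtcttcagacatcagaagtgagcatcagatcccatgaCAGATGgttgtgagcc
intergenic, nearest Cplx2, chr13:54322862-54323011: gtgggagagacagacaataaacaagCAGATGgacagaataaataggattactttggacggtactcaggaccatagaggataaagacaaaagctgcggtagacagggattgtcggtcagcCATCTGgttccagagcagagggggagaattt
intergenic, nearest Pou3f2, chr4:22835866-22836015: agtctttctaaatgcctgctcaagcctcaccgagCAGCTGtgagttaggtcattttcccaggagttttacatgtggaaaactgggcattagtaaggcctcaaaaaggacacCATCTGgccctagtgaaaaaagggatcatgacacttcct
Map2 intron, chr1:66349478-66349627: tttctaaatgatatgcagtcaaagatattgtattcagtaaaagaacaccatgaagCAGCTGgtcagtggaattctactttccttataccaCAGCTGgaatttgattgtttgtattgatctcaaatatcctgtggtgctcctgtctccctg
Nrcam intron, chr12:44338382-44338531: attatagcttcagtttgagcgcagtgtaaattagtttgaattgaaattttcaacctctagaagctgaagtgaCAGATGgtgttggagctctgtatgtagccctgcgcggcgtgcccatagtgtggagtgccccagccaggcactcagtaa
intergenic, nearest Olfm4, chr14:80233302-80233451: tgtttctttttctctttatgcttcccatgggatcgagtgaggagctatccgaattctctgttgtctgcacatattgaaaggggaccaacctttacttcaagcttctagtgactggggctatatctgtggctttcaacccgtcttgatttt

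The stretches under the Syt2, Dst and Slc15a2 peaks each held 3 CAGATG sites and no CAGCTG. The stretch in the Ebf2 intron held 2 of each. The stretch near Pou3f2 held 1 of each, and the Map2 stretch held 2 CAGCTG sites only. No copy of either E-box was found anywhere in the 981 bp peak nearest to Olfm4. Over their whole length, 15 of the 18 named peaks held CAGATG, and 10 held it within 250 bp of the peak centre. Over all members these shares were 74.0% and 48.1%, so the named peaks were near members in general, and over all distal peaks of at least 20 reads they were 54.8% and 30.5%. A match is a description of the letters and not evidence that a factor was bound.

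Reads in merged peaks totalled between 6283103 and 8112895 per library, and members held 0.651% and 0.510% of them at 0 h (R1 and R2), then 1.17% and 1.14% at 12 h, then 2.03% and 1.95% at 48 h. The libraries differed in the share of reads that fell in promoter peaks, which was 52.2% and 53.7% at 0 h, then 44.3% and 44.2% at 12 h, then 57.4% and 50.3% at 48 h. The 48 h R1 library thus stood apart from 48 h R2 at promoters, and both 12 h libraries were low there. At the members themselves, the 0 h libraries differed most, with R1 above R2 in 801 members (77.5%) and a median difference of 0.25 on the log2 scale. The labelled cell type was checked at promoters. All 8 ES cell markers tested, which include Pou5f1, Sox2 and Nanog, had a promoter peak, with a median scaled count of 2873 at 0 h and 2153 at 48 h. Of 9 neuronal markers, 6 had one, with a range of 11.0 to 306 at 0 h and 15.6 to 288 at 48 h and a summed level of 629 at 0 h, 494 at 12 h and 782 at 48 h, while Dcx, Nefm and Snap25 had none. Of 9 fibroblast markers, Col1a1 and Twist1 had a peak (summed level 62.5 at 0 h and 110 at 48 h), and of 6 endoderm markers, Dab2 alone (39.7 at 0 h and 56.1 at 48 h). These sums hide genes that moved in opposite directions. Tubb3 made most of the rise in the neuronal sum, with a mean of 108 before induction and 258 after 48 h. Elavl4 (158, then 181), Nefl (11.0, then 15.6) and Map2 (16.7, then 17.4) rose less. Elavl3 (29.3, then 21.8) and Stmn2 (306, then 288) fell. In the fibroblast sum, Twist1 rose (46.3, then 102) while Col1a1 fell (16.2, then 8.56). The part of feeder or endoderm cells in the results was not tested. In such bulk libraries, more cells that carry the mark at a peak and more signal per cell cannot be told apart.

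At the median member, the scaled count was 21.6 and 16.98 in the 0 h libraries (R1 and R2), then 40.7 and 38.6 at 12 h, then 77.7 and 72.7 at 48 h. The groups do not overlap in any member because the rule demanded it. All distal peaks of at least 20 reads had medians of 48.8 to 50.3 at 0 h, 52.4 to 54.7 at 12 h and 44.4 to 49.4 at 48 h. Members began lower than the usual distal peak and ended higher. The rule chose rising peaks, and their depth was similar, with a median of 45.7 reads per library against 50.3. Such a crossing therefore follows from the choice and is not a separate result.

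**Figure D1:**
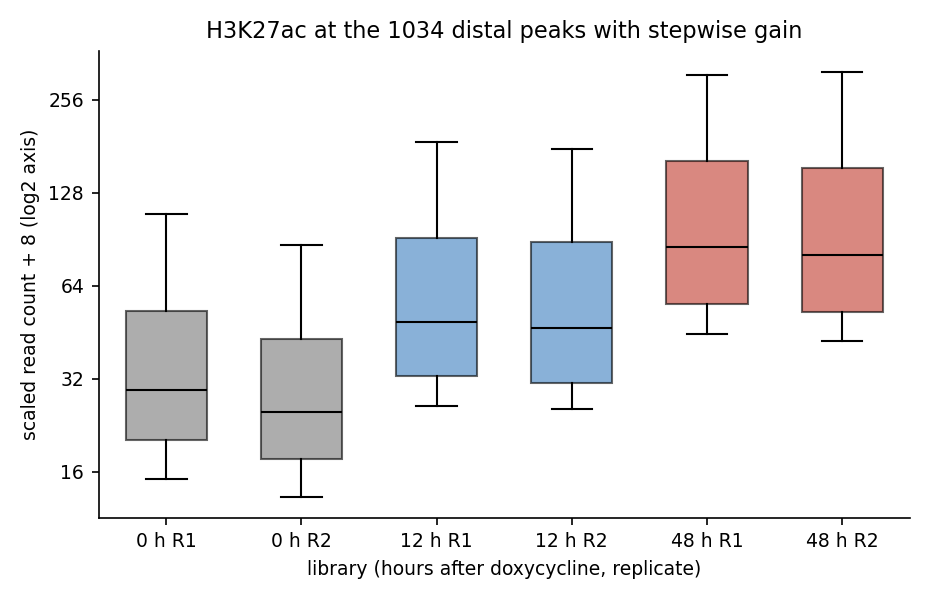
Scaled read counts plus a pseudocount of 8 (vertical log2 axis) at the 1034 members in each of the 6 libraries (horizontal axis). Boxes span the quartiles with the median as a line, and whiskers reach the 10th and 90th percentiles. Median scaled counts were 21.6 and 16.98 at 0 h, then 40.7 and 38.6 at 12 h, then 77.7 and 72.7 at 48 h.

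The members varied widely in size. The ratio of 48 h to 0 h means, with a pseudocount of 8 added to both, had a median of 2.90, with 10% of members at or under 1.89, 10% at or above 5.27, and a maximum of 16.1. A ratio of at least 4 was found in 259 members and a ratio of at least 10 in 5. Few members started from nothing. In 13 members both 0 h libraries held 3 reads or fewer, and in none were both at 0. By contrast, 88 members already had a scaled count of at least 100 at 0 h, and these had a median of 152 at 0 h, 265 at 12 h and 411 at 48 h, with a median ratio of 2.40. The 219 members under 10 at 0 h had medians of 7.29, 21.4 and 47.2 and a median ratio of 3.85. Every member needed a mean of at least 20 reads, so those that began so low could enter only through high later counts. The read minimum itself thus favours a larger ratio among them. Members that began higher were wider, with a median of 3413 bp against 794 bp, while CAGATG was found in 50.0% of the first group and 45.7% of the second.

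Both steps contributed to the rise, as the rule demanded. By 12 h, the median member had made 37.9% of its gain in scaled counts, and in 768 members (74.3%) the second step was the larger of the steps in scaled counts. As a ratio with the pseudocount, the first step had a median of 1.63 and the second 1.62. The steps were thus similar in proportion, under a rule that set the same minimum for each. A small early share, under 25% of the gain by 12 h, was seen in 215 members, and more than 50% in 266.

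Calls from the test across all peaks are given as a description, because the rule used the same contrasts. With edgeR's quasi-likelihood test (Benjamini-Hochberg adjusted p under 0.05, over all peaks), 486 members (47.0%) were called gained at 12 h vs 0 h, where the share over all merged peaks was 9.93%. At 48 h vs 12 h, 524 members (50.7%) were called gained, against 10.7% of all peaks. At 48 h vs 0 h, 995 members (96.2%) were called gained, against 8.56% of all peaks. Only 243 members were called at both steps, and 39 in none of the 3 comparisons. These counts leaned on single libraries, as did those over all merged peaks. Without 0 h R2, 127 members were called at 12 h and 619 at 48 h vs 0 h. Without 0 h R1, 12 h R1 or 12 h R2, the number at 12 h vs 0 h was 318, 236 or 234. The number at 48 h vs 12 h was 175 without 12 h R1 and 111 without 12 h R2, and it rose to 810 with an offset on GC content.

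The rule was also read on 1 replicate and checked in the other, whose counts the choice had not used. The peaks had been merged over all libraries, and the replicates may be technical, so this is not an independent check. When peaks were chosen on the R1 libraries alone, by the same ratios and read minimum, 1030 distal peaks were found. In the R2 libraries, 860 of these (83.5%) rose at both steps, where 17.9% of all distal peaks of the same read minimum did, and 659 (64.0%) rose by at least 25% at both, against 6.40%. When peaks were chosen on R2 alone, 1939 were found. In the R1 libraries 1130 of these (58.3%) rose at both steps, against 9.70%, and 688 (35.5%) did so by at least 25%, against 3.61%. The 48 h vs 0 h change of peaks chosen on R2 had a median of 1.40 on the log2 scale in R2 and 0.97 in R1, whereas for peaks chosen on R1 it was 1.496 in R1 and 1.47 in R2. The stepwise pattern was therefore found again more often with one direction of choice than with the other.

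At the threshold itself, the members just inside and just outside differed little in their smaller step. Just inside lay peaks nearest to Adamtsl1, Sulf1 and Arhgef10l, with smaller steps of 1.25015, 1.25046 and 1.2505. The Sulf1 peak had scaled counts of 35.9 and 41.4 at 0 h, then 49.3 and 52.4 at 12 h, then 53.3 and 73.9 at 48 h. Just outside lay peaks nearest to Marcks, Ror2 and Habp4, with smaller steps of 1.24926, 1.24878 and 1.24869. The Marcks peak just outside had counts of 24.6 and 32.9 at 0 h, then 149 and 151 at 12 h, then 201 and 174 at 48 h, so that it rose far more over the whole course than the Sulf1 peak.

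The peaks that rose most are described by the gene of the nearest protein-coding TSS, which names a peak and does not show that the gene is its target. With the pseudocount of 8, the largest ratio (16.1) was at a 2723 bp intergenic peak 77827 bp from the TSS of Fbxo8, an F-box protein gene (chr8:56627556-56630278). Its scaled counts were 10.3 and 11.7 at 0 h, then 86.8 and 119 at 12 h, then 284 and 310 at 48 h, a 27.2-fold rise from 0 h to 48 h without the pseudocount (95% interval 17.7 to 44.3, for counting error only). The folds given with an interval for the next peaks are likewise without it, and by that measure peaks with almost no reads at 0 h had larger values. The libraries of each time point lay close together and far from those of the next.

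Next came a peak in an intron of Syt2 (chr1:134712654-134714790), which encodes a calcium sensor of synaptic vesicle release. It held 11.3 and 5.31 scaled reads at 0 h, then 70.8 and 58.0 at 12 h, then 208 and 136 at 48 h, a 20.03-fold rise (12.2 to 35.4). Unlike at Fbxo8, the 48 h replicates were well apart here. The Wdfy3 peak, intergenic and 53567 bp from the start of a gene for an autophagy scaffold (chr5:102121988-102124989), held 24.6 and 12.7 at 0 h, then 81.5 and 68.1 at 12 h, then 304 and 257 at 48 h. Only 21.4% of its gain had been made by 12 h.

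Other large peaks made most of their gain early. The St8sia3 peak, near a sialyltransferase gene, held 29.8 and 30.8 at 0 h, then 289 and 251 at 12 h, then 364 and 436 at 48 h, with 64.9% of the gain by 12 h. A 4892 bp peak over an exon of Dst, the gene of the cytoskeletal linker dystonin (chr1:34180808-34185699), went from 61.6 and 42.5 to 404 and 350 and then to 561 and 524, with 66.4% of the gain by 12 h. At the Skap2 peak, 163097 bp from the TSS of a Src kinase adaptor gene (chr6:51846797-51852039), the course was the reverse, with 53.4 and 42.5 at 0 h, then 201 and 160 at 12 h, then 627 and 545 at 48 h. At this peak 24.6% of the gain came by 12 h.

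A pair of named peaks started from almost no reads. The Olfm4 peak, 233490 bp from the gene of a secreted glycoprotein (chr14:80233302-80234282), held 1 read in 0 h R1 and 0 reads in 0 h R2, then 13 and 18 reads at 12 h and 70 and 78 at 48 h. The ratio of 48 h to 0 h was 137, with a counting interval of 24.3 to 5465, which shows how little the single read fixes the value. An intronic peak of Arpp21, which encodes an RNA-binding protein of neurons (chr9:112102784-112103693), held 1 read in each 0 h library, 17 and 11 at 12 h, and 51 and 44 at 48 h, a ratio of 44.1 (11.9 to 370).

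The remaining peaks of the 12 with the largest ratio lay in introns of Map2, Slc15a2 and Pdzrn3 and outside genes near Cd40 and Pou3f2. Map2 encodes a microtubule-associated protein of dendrites, and its intronic peak (chr1:66348251-66349659) held 8.21 and 4.25 at 0 h, then 45.03 and 66.2 at 12 h, then 113 and 132 at 48 h. The peak nearest to Pou3f2, a POU factor of neuronal progenitors, lay 347139 bp from its TSS (chr4:22833685-22837325). It held 35.9 and 18.04 at 0 h, then 94.4 and 84.6 at 12 h, then 331 and 261 at 48 h. In the 18 named peaks the time points were separated in every library, as the rule required. The 0 h replicates were far apart in relative terms at Ebf2 (23.6 and 9.55), Syt2 (11.3 and 5.31) and Id4 (50.3 and 23.4).

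**Figure D2:**
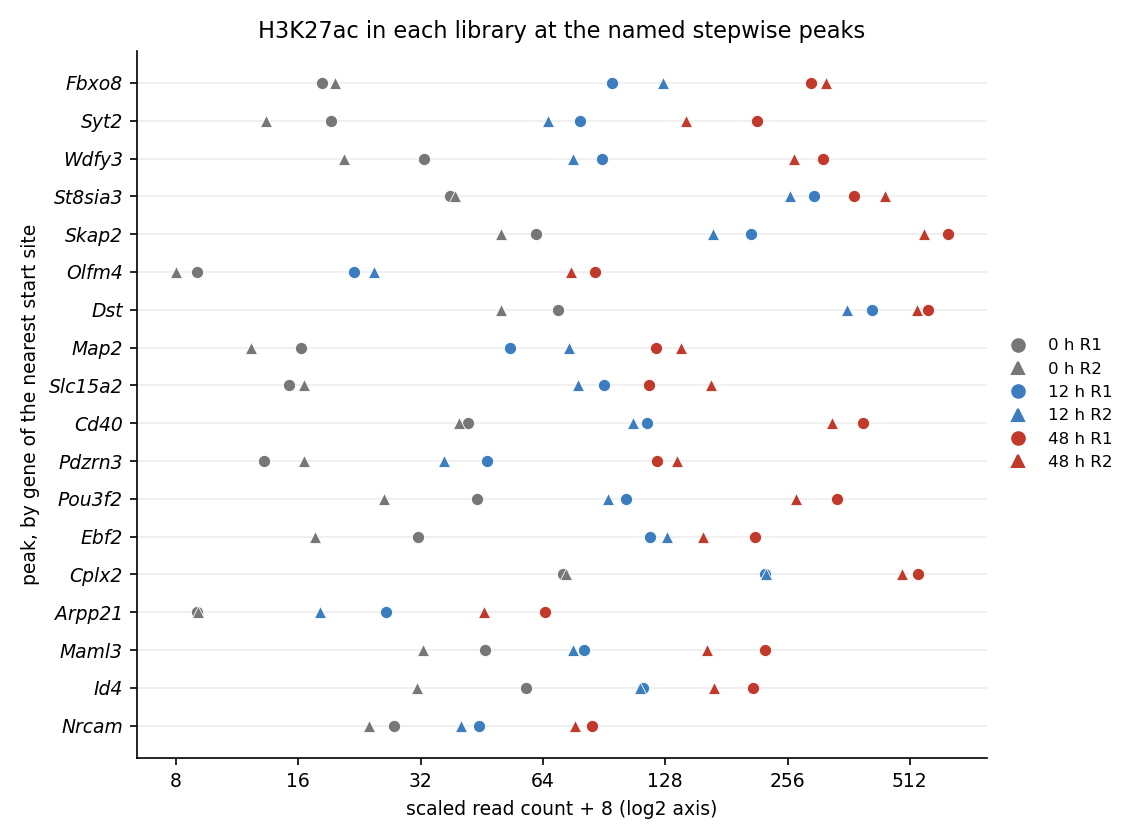
Scaled read counts plus 8 (horizontal log2 axis) in each library at the 18 named members (rows, by the gene of the nearest TSS, largest ratio at the top). Grey, blue and red stand for 0 h, 12 h and 48 h, circles for R1 and triangles for R2. The Skap2 peak, with 627 and 545 scaled reads at 48 h, was the highest of them, and the Arpp21 and Olfm4 peaks began with at most 1 read per library.

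The members with the most reads were broad domains. A 16317 bp peak (chr11:76283689-76300005) lay in the introns of Nxn, the gene of the redox protein nucleoredoxin, and nearest to the TSS of Glod4. It went from 747 and 613 scaled reads at 0 h to 2254 and 2160 at 12 h and 3132 and 3089 at 48 h, a 4.56-fold rise (4.30 to 4.84) of which 62.8% came by 12 h. An 11860 bp intergenic peak 10917 bp from the TSS of Trp53i11, a gene named for its induction by p53 (chr2:93170702-93182561), went from 430 and 353 to 1192 and 1255 and then to 1739 and 1660. At these depths the replicates differed by far less than the steps between time points.

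Members often lay in groups. Of the 1034 members, 270 (26.1%) had another member within 10 kb and 403 (39.0%) within 50 kb, while 249 had none within 1 Mb. The members named 747 genes by nearest TSS. Of these, 566 had 1 member, 119 had 2, and 62 had 3 or more. Peaks next to each other share a locus and are not independent.

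Glod4 had the most, with 8 members over 59523 bp, of which 6 lay in introns of its neighbour Nxn. Together they summed to 871 and 696 scaled reads at 0 h, then 2505 and 2394 at 12 h, then 3630 and 3507 at 48 h. Susd6 had 7, all within the gene, with sums of 380 and 296, then 1057 and 986, then 1511 and 1712. The promoters of Glod4 and Susd6 had no called change at 48 h vs 0 h. The Glod4 promoter peak held 252 ± 13.9 scaled reads at 0 h and 272 ± 42.7 at 48 h (mean ± SD, n = 2), and the Susd6 promoter peak 616 ± 81.1 and 696 ± 1.03, with adjusted p-values of 0.77 and 0.52 in edgeR's test.

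Neuronal regulators were among the other genes with several members. Insm1, which encodes a zinc finger repressor of neuroendocrine and neuronal differentiation, had 6, all in introns of the neighbouring gene Ralgapa2 and 37530 to 116156 bp from the TSS. Their summed counts were 119 and 88.1 at 0 h, then 279 and 254 at 12 h, then 413 and 493 at 48 h. Sox4, a SoxC factor of neuronal differentiation, had 5 members between 109768 and 417967 bp away, with sums of 164 and 117, then 239 and 195, then 395 and 397. Klf7, a Krüppel-like factor of neurons, and Tox3, a high mobility group protein gene, had 6 each. Ncam1, the neural cell adhesion molecule, had 5, and their sums rose from 289 and 224 to 542 and 484 and then to 824 and 807. Not all of these genes are neuronal. Rpl14, a ribosomal protein gene, had 6 members, and Clybl, a mitochondrial enzyme gene, and Pik3r1, a regulatory subunit of PI3-kinase, had 5 each.

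The genomic position of the members differed from that of distal peaks at large. Introns held 54.0% of members and 40.2% of all distal peaks of at least 20 reads, exons 2.80% and 4.60%, and intergenic sequence 43.2% and 55.2%. The median distance to the nearest protein-coding TSS was 40080 bp for members and 27955 bp for all. Within 10 kb of such a TSS lay 14.6% of members and 22.8% of all. Repeats covered a median of 15.0% of a member against 25.6% of a distal peak, GC content was 46.8% against 48.8%, and width 1114 bp against 972 bp. Peaks that gained early and then held their level (1718 peaks) were in introns in 46.6%, with a median distance of 34256 bp. Peaks that gained only after 12 h (1249 peaks) were in introns in 55.4%, with a median distance of 22278 bp. Members thus resembled the late peaks in their share of introns and lay farther from a TSS than either set. These are shares over peaks of the same libraries, with no test.

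CAGATG was the E-box that set the members apart most. Within 250 bp of the centre, on either strand, it was found in 497 members (48.1%), in 30.5% of all distal peaks of at least 20 reads and in 29.3% of all merged peaks. The share was 42.3% in early sustained peaks, 37.8% in late peaks, 33.1% in peaks highest at 12 h and 12.0% in peaks that fell stepwise. CAGCTG was found in 34.3% of members against 24.9% of all distal peaks, and 35.1% of late peaks held it too. CAAATG was found in 32.8% against 23.3%. CAGGTG went the other way, with 25.8% against 39.1%, and was found in 74.4% of the stepwise losses. These losses held a mean of 2.79 CAGGTG sites, against 0.728 in all distal peaks. Repeats covered a median of 92.4% of them, against 25.6%, and their median GC content was 58.7%, against 48.8%. The part of repeats in the shares of E-boxes was not tested. The remaining E-boxes differed by less than 6 percentage points between members and all distal peaks.

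The shares of CAGATG were also split by the GC content of the peak. Below 40% GC, 41.1% of members held CAGATG, against 30.7% of all distal peaks in that range. The shares were 46.5% against 32.3% at 40 to 45% GC, 46.6% against 33.9% at 45 to 50%, 55.2% against 36.1% at 50 to 55%, and 45.7% against 20.1% above 55%, where only 46 members lay. Members were thus above all distal peaks in each of the 5 ranges. Above 55% GC, 808 of the 6650 distal peaks were stepwise losses, of which 5.45% held CAGATG.

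The number of CAGATG sites per member ranged from none to several. No site was found in 537 members (51.9%), 1 in 349, 2 in 127 and 3 or more in 21. Read the other way, members made up 2.73% of distal peaks with no site, 5.02% of those with 1, 8.75% of those with 2 and 8.54% of those with 3 or more. Among members, the size of the rise hardly moved with the number of sites, with a median ratio of 2.78 for no site, 3.08 for 1, 3.00 for 2 and 2.76 for 3 or more. Where a member held more than 1 site, neighbouring sites started a median of 120 bp apart, and 43 of the 172 pairs were within 50 bp, against a median of 133 bp and 484 of 2052 pairs in all distal peaks.

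CAGATG was spread evenly over the members. It occurred 1.35 times per kb within 100 bp of the centre and 1.31 times per kb at 300 to 500 bp. In all distal peaks of at least 20 reads the values were 0.745 and 0.849. H3K27ac peaks cover the nucleosomes beside a bound site rather than the site, and the centre of a merged peak is not a binding position. Each CAGATG was also read with its flanking bases. ACAGATGG made up 16.4% of the 675 sites in members and 11.1% of the 10787 in all distal peaks, and GCAGATGG 12.1% and 8.48%. Other sets came close, with ACAGATGG at 14.9% of the sites in stepwise losses and GCAGATGG at 11.97% in early sustained peaks.

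**Figure D3:**
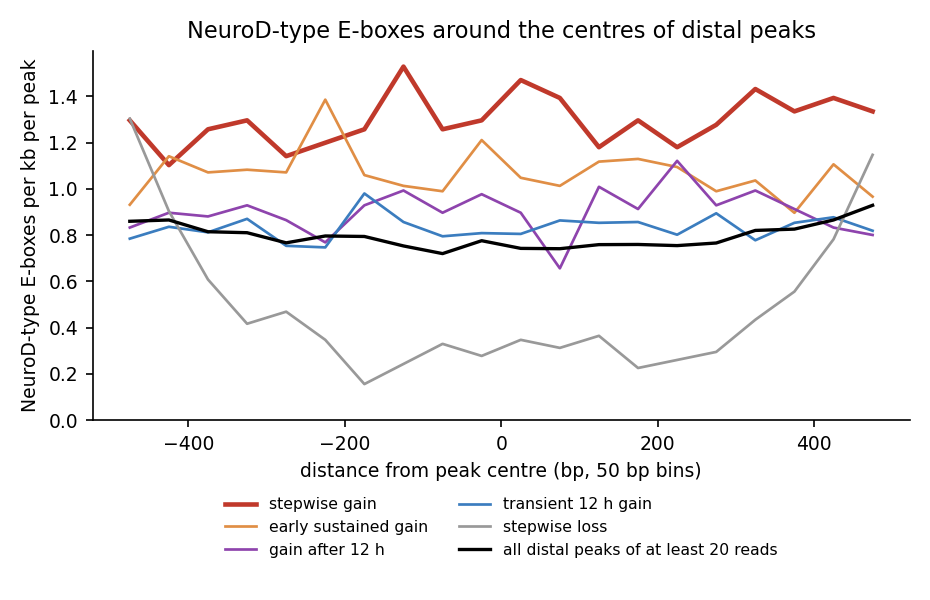
Number of CAGATG sites (NeuroD-type E-boxes) per kb and peak (vertical axis) in 50 bp bins by distance from the peak centre (horizontal axis, bp), for members (red), the other time courses and all distal peaks of at least 20 reads (black). The members lie above the early sustained peaks in 18 of 20 bins and above the other gaining sets in all bins, with 1.35 sites per kb near the centre against 0.745 for all distal peaks.

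Among motifs outside the E-boxes, ATGCAAAT, the octamer bound by POU factors, was found in 5.13% of members and 2.59% of all distal peaks. ACAATG, a core of Sox sites, was found in 27.6% against 19.03%, and TAATTA, bound by homeodomain proteins, in 12.2% against 9.47%. Within ranges of GC content TAATTA hardly differed for most members, with 26.0% against 25.5% below 40% GC, 16.6% against 17.04% at 40 to 45% and 9.22% against 9.25% at 45 to 50%, while it was 9.48% against 5.84% at 50 to 55% and 4.35% against 1.26% above. TCAAGGTCA, bound by Esrrb, was found in 1.16% against 1.83%. For the octamer the shares by GC content were 12.3% against 4.35% below 40% GC, where 73 members lay and late peaks had 9.38%, then 7.38% against 3.82%, 3.64% against 3.03% and 3.88% against 2.55% in the next ranges. Above 55% GC it was found in none of the 46 members and in 0.451% of all distal peaks. The other gaining sets held these motifs too. ACAATG was found in 25.5% of early sustained peaks, 21.1% of late peaks and 25.2% of peaks highest at 12 h. In the same order, the shares were 13.8%, 9.61% and 15.4% for TAATTA, and 4.13%, 3.84% and 3.43% for ATGCAAAT. For TCAAGGTCA they were 0.931%, 0.881% and 3.00%.

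The H3K27ac of other peaks close to the members is a measure the rule did not use. Of the 27322 distal peaks of at least 20 reads that were not members, 8.38% were called gained at 48 h vs 0 h by edgeR's test. Within 5 kb of a member the share was 56.1% (224 of 399 peaks), and 1 peak was called lost. It was 24.8% at 5 to 25 kb (208 of 840), 11.9% at 25 to 100 kb (254 of 2138) and 6.70% beyond (1604 of 23945). The median log2 fold change fell in the same order, from 0.97 to 0.34, 0.01 and -0.20. The share called gained at 12 h vs 0 h went from 34.1% to 21.8%, 16.7% and 15.0% over the same ranges. Neighbouring peaks can be parts of a single broad domain that the peak caller divided.

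The promoters of the nearest genes are another measure outside the rule, since promoter peaks could not be members. A gene's promoter peak was the peak with the most reads among those that overlap the 2 kb around its protein-coding TSSs. Of the 747 genes, 621 had such a peak and 126 had none. At 48 h vs 0 h, 127 of the 621 promoter peaks (20.5%) gained H3K27ac and 5 lost it. Over the promoter peak of every gene (13132 genes), 4.07% gained and 2.83% lost it. The median log2 fold change was 0.30 for the 621 and 0.06 for all.

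The share followed the number of members. It was 15.3% for genes with 1 member (70 of 457), 29.8% for genes with 2 (31 of 104) and 43.3% for genes with 3 or more (26 of 60), against 3.26% for genes with none. By distance, the share was 26.1% where the closest member lay within 20 kb (59 of 226), 17.2% at 20 to 100 kb (48 of 279) and 17.2% beyond 100 kb (20 of 116). The number of distal peaks near a gene was not held fixed in these counts.

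**Figure D4:**
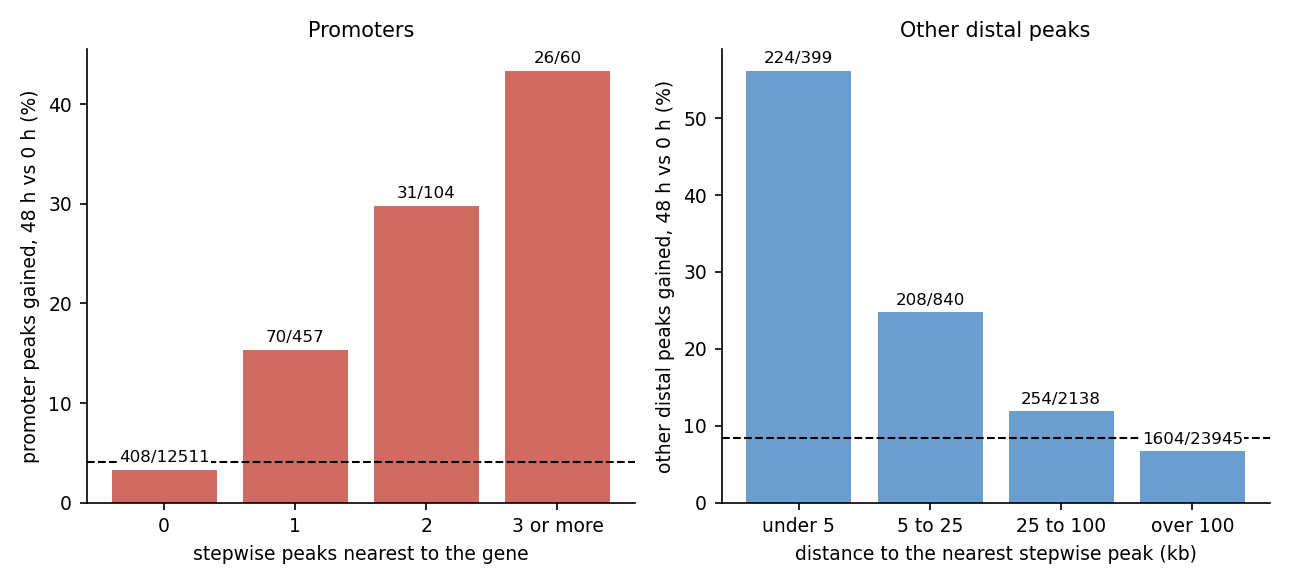
Left, percent of promoter peaks gained at 48 h vs 0 h (vertical axis) by the number of members nearest to the gene (horizontal axis), from 3.26% with none to 43.3% with 3 or more. Right, percent of other distal peaks gained by distance to the nearest member (kb), from 56.1% under 5 kb to 6.70% over 100 kb. Numbers above bars are peaks gained of peaks tested, and dashed lines mark 4.07% of all promoter peaks and 8.38% of all distal non-members.

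At 12 h vs 0 h, H3K27ac rose at 33 of the 621 promoters (5.31%) and fell at 104 (16.7%), where over every gene 1.77% rose and 22.1% fell. The median log2 fold change was -0.29 for the 621 and -0.41 for all. From 12 h to 48 h, 307 (49.4%) gained and 10 lost it, against 34.5% and 2.38% over every gene. The rise of promoters from 12 h to 48 h was thus shared by promoters in general, and its share was higher near members. With an offset on GC content, which raised promoter changes at 12 h by a mean of 0.20 on the log2 scale, 58 of the 621 gained and 58 lost H3K27ac at 12 h. DESeq2 called 30 gained and 28 lost. The number of gains at 12 h over every gene also moved with the GC offset and when any of the libraries compared was left out. Which direction had more calls also turned on single libraries. It was 18 gained and 22 lost without 0 h R1, 10 and 1 without 0 h R2, 16 and 9 without 12 h R1, and 15 and 2 without 12 h R2.

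These promoter counts depended on single libraries. Without 48 h R1, the library rich in promoter reads, 114 of the 621 promoter peaks gained (18.4%, against 5.10% of all) and 41 lost. Without 48 h R2, 306 gained (49.3%, against 18.9% of all). Without 0 h R2, 43 gained (6.92%, against 0.982%), and without 0 h R1, 76 (12.2%, against 1.86%). With the GC offset, 237 gained (38.2%, against 11.4%). In each of these settings the share near members was above that of all promoters.

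Among the named genes, 27 had a promoter peak, and 16 of these gained H3K27ac at 48 h vs 0 h. The Cplx2 promoter showed the largest change. Cplx2 encodes complexin 2, a regulator of synaptic vesicle fusion, and its promoter peak (chr13:54370869-54372833) held 19.5 and 12.7 scaled reads at 0 h, then 17.2 and 20.2 at 12 h, then 268 and 130 at 48 h (log2 fold change at 48 h vs 0 h 3.60, adjusted p = 1.65e-07 in edgeR's test). At 12 h the promoter showed no called change (log2 fold change 0.22, adjusted p = 0.77). Over every gene, promoters had a median of -0.41 at 12 h vs 0 h, and the 12 h libraries held the smallest share of reads in promoter peaks. Its 3 members, which the rule required to rise by 12 h, lay 41683 to 47740 bp away and summed to 79.3 ± 4.02 at 0 h, 270 ± 3.29 at 12 h and 632 ± 56.1 at 48 h (mean ± SD, n = 2).

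Other large promoter gains are given by library. The St8sia3 promoter held 64.7 and 47.8 at 0 h, then 85.8 and 82.8 at 12 h, then 515 and 311 at 48 h (log2 fold change 2.87, adjusted p = 3.80e-08 in edgeR's test). The Tox3 promoter held 64.7 and 53.1, then 61.1 and 50.6, then 341 and 129, and the 48 h replicates were far apart. Its log2 fold change at 12 h was -0.08, and 0.34 with the GC offset, neither of them called. The promoter of Pou3f2 held 8.21 and 8.49, then 21.4 and 13.8, then 113 and 30.1. In 23 of the 27 named promoters the 48 h R1 value was above that of R2. The gains of Cplx2, St8sia3, Tox3, Pou3f2, Ebf2, Insm1 and Setbp1 at 48 h vs 0 h were called whichever library was left out. Those of Cd40, Dst, Nrcam, Sox4 and Zfp608 were lost without 0 h R2, those of Klf7 and Maml3 without either 0 h library, and those of Id4 and Syt2 without either 0 h library or 48 h R1. DESeq2 did not call Id4 (adjusted p = 0.0938) or Syt2 (adjusted p = 0.0882).

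A few promoters rose at the first step. The Ebf2 promoter (chr14:67234692-67236281) held 15.4 and 10.6 at 0 h, then 40.7 and 51.5 at 12 h, then 145 and 75.7 at 48 h. On the log2 scale it had changed by 1.82 after 12 h (adjusted p = 0.003 in edgeR's test) and by 3.06 after 48 h. Ebf2 encodes a helix-loop-helix factor of neuronal differentiation. The Insm1 promoter held 71.8 and 61.6, then 177 and 144, then 362 and 269, with a log2 fold change of 1.26 at 12 h and 2.24 at 48 h. The Dst promoter was the third of the named promoters called gained at 12 h (log2 fold change 0.54), and its adjusted p was between 0.104 and 0.287 when any 1 of the libraries compared was left out. Without 0 h R2, the adjusted p at 12 h in edgeR's test was 0.12 for Ebf2 and 0.0627 for Insm1, and for Ebf2 it was 0.0613 without 12 h R2.

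For several of the strongest members the promoter showed no called change. The Fbxo8 promoter held 311 and 261 at 0 h and 397 and 368 at 48 h (adjusted p = 0.13), the Skap2 promoter 492 and 409 and then 417 and 461 (adjusted p = 0.93), and the Map2 promoter 16.4 and 16.98 and then 24.4 and 10.3 (adjusted p = 0.99 in edgeR's test). At Map2 and Skap2 the groups overlapped. Olfm4, Slc15a2 and Arpp21 had no promoter peak.

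**Figure D5:**
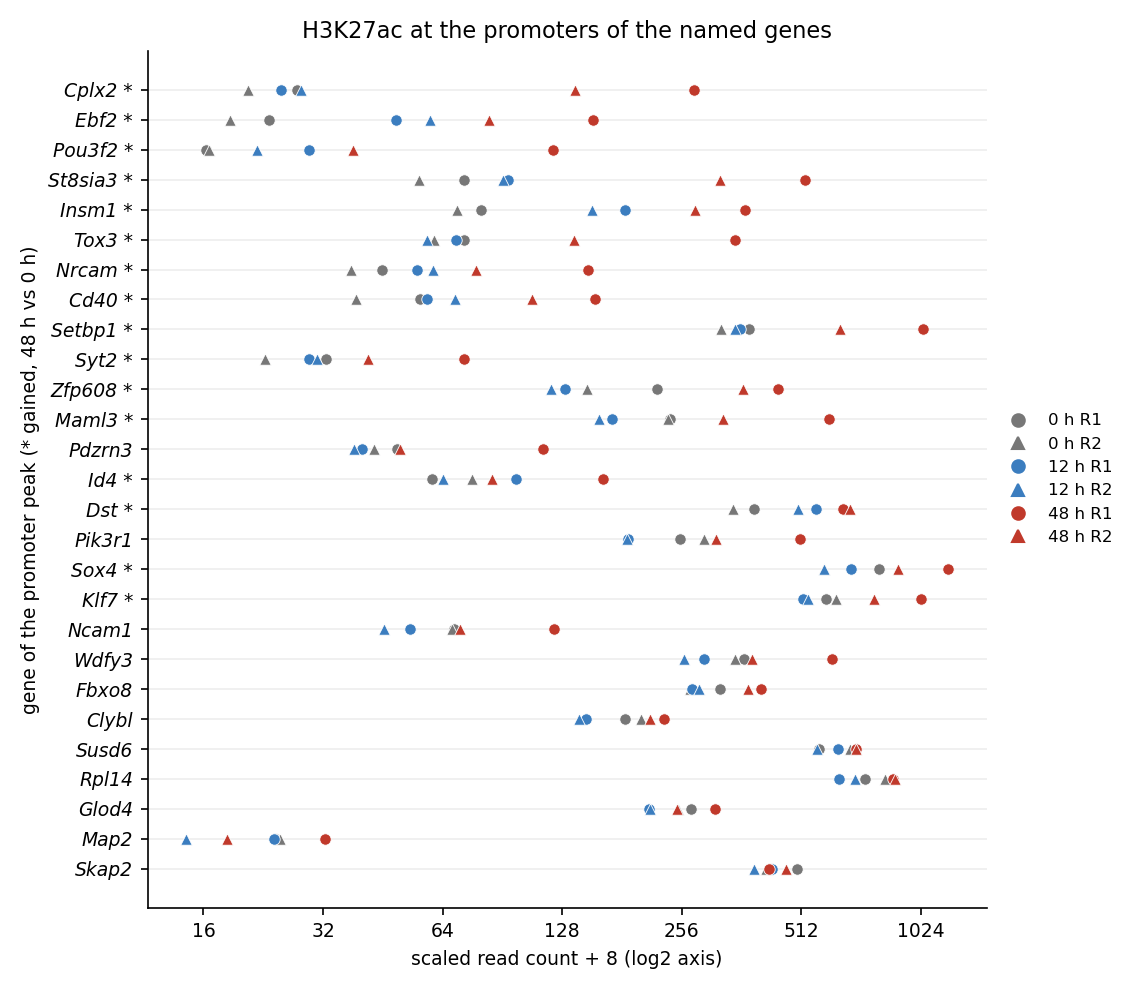
Scaled read counts plus 8 (horizontal log2 axis) in each library at the promoter peaks of the 27 named genes (rows, by log2 fold change at 48 h vs 0 h). Colours and markers are those of the time points and replicates, and asterisks mark the 16 promoters called gained. The Cplx2 promoter, at 19.5 and 12.7 before induction, reached 268 and 130 by 48 h, and in 23 promoters R1 was above R2 at 48 h.

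Gene lists written for this tissue and treatment give the genes near members by their role. Across 11 lists, 54 genes had at least 1 member by nearest TSS, which made 94 members, and of the 50 of these genes with a promoter peak 24 gained H3K27ac there at 48 h vs 0 h. Over the promoter peaks of all genes nearest to a member, 127 of 621 gained it (20.5%). The share of all promoter peaks that gained was 4.07%, and the median log2 fold change of all was 0.06. The lists were chosen with earlier results of these data known.

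Neuronal transcription factors had the most members, 24 near 10 of 41 genes, and, where 3.65% of all distal peaks of at least 20 reads were members, 24 of the 126 distal peaks of at least 20 reads nearest to these genes were members. Of their 27 promoter peaks 13 gained H3K27ac at 48 h (median log2 fold change 0.97). At 12 h 7 gained it, against 1.77% over every gene. No loss was called among them by edgeR or DESeq2 at 48 h, with 1 promoter lower at an unadjusted p under 0.05. Nhlh1, a bHLH factor of young neurons, had a member 3998 bp from its TSS with a mean of 29.6 at 0 h, 88.9 at 12 h and 169 at 48 h. Its promoter held 18.5 and 12.7, then 36.5 and 48.8, then 119 and 68.8. Onecut1, a homeodomain factor of early neurons, had a member that went from 8.39 to 20.7 and 52.0 in the means, and its promoter was already at its full level at 12 h, with 59.5 and 50.9, then 274 and 235, then 299 and 224. Sox11, the second SoxC factor of this list, had 4 members at least 202738 bp from its TSS with summed means of 506, 770 and 1124, and its promoter gained only by 48 h (515 and 429, then 344 and 297, then 1176 and 682).

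Partners and antagonists of bHLH factors had fewer members but also fewer distal peaks, and their shares were above the 3.65% over all such peaks. Among E proteins and Id factors, 3 of 7 genes had 5 members in all (11.4% of their 44 distal peaks). At 48 h 3 of 7 promoters gained H3K27ac, or 2 with DESeq2. The 3 were those of Id1, Id2 and Id4, which encode inhibitors of bHLH dimerisation. Tcf4, an E protein gene, had 2 members with summed means of 127, 244 and 384, and a promoter log2 fold change of 0.39 at 48 h (adjusted p = 0.10 in edgeR's test). In the Notch pathway, 5 of 28 genes had 6 members (8.57% of their 70 distal peaks). Of 25 promoters, 9 gained and 2 lost H3K27ac at 48 h, or 8 and 1 with DESeq2. Those of the ligand genes Dll1 and Dll3 were among the gains, as were those of the coactivator genes Maml2 and Maml3. The member nearest to Hes1, a Notch target that represses proneural genes, rose from a mean of 47.9 to 100 and 164, while the Hes1 promoter held 604 and 754 at 0 h, then 538 and 535 at 12 h, then 513 and 471 at 48 h (adjusted p = 0.06 in edgeR's test).

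POU class III, Otx and Zic factors, which act in the early nervous system, had 5 members near 4 of 11 genes. That was 12.8% of their 39 distal peaks. At 48 h 5 of 8 promoters gained and 1 lost H3K27ac, or 4 and 0 with DESeq2. The Otx2 promoter had gained by 12 h (135 and 89.2, then 248 and 226, then 217 and 273), whereas the Pou3f1 promoter had not (143 and 107, then 137 and 101, then 435 and 235).

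Genes of neuronal structure were read by the same counts. Neuronal cytoskeleton genes had 12 members near 5 of 31 genes (12.6% of their 95 distal peaks). Of 29 promoters 7 gained H3K27ac at 48 h, or 6 with DESeq2. At 12 h 1 had gained and 7 had lost it. Over every gene, 1.77% of promoter peaks gained and 22.1% lost it at 12 h, so the losses in this list were near that share. Map1b, a microtubule-associated protein of axons, had 4 members with summed means of 279, 582 and 880, and its promoter went from 497 and 453 to 487 and 408 and then to 865 and 660. Marcks, which encodes an actin-binding substrate of protein kinase C, had 3, and its promoter held 644 and 556, then 634 and 588, then 1693 and 1142. Neuronal migration genes had 12 members near 8 of 30 genes (10.2% of 118 peaks), and 4 of 25 promoters gained at 48 h, or 2 with DESeq2. At 12 h 2 had gained and 5 had lost the mark, the losses again near the share over every gene. The tetraspanin gene Tspan5 was the one gene of that list with both a member and a gained promoter, with 157 and 75.4 at 0 h, then 394 and 361 at 12 h, then 494 and 516 at 48 h. Axon guidance genes had 5 members near 4 of 37 genes. That was 2.96% of their 169 distal peaks, below the 3.65% over all such peaks, and 4 of 22 promoters gained, or 1 with DESeq2.

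Synapse and secretion genes had 11 members near 7 of 50 genes (8.15% of 135 peaks), and 6 of 30 promoters gained H3K27ac at 48 h, or 4 with DESeq2. At 12 h 1 had gained and 6 had lost it, where over every gene 1.77% of promoter peaks gained and 22.1% lost it. Neuronal RNA-binding proteins had 14 members near 8 of 20 genes (9.52% of 147 peaks). Of 14 promoters 2 gained at 48 h, those of Rbfox3 and the splicing factor gene Srrm4, or 1 with DESeq2. The Srrm4 promoter held 150 and 117 at 0 h, then 229 and 219 at 12 h, then 655 and 417 at 48 h.

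Genes of the ES cell state had no members. None of the 171 distal peaks of at least 20 reads nearest to 30 pluripotency genes was a member, where the share over all such peaks was 3.65%. Of their 29 promoter peaks 13 lost H3K27ac at 48 h vs 0 h, or 8 with DESeq2, against 2.83% over every gene (median log2 fold change -0.38), among them those of Nanog, Esrrb and Klf2, which encode factors of the naive ES cell network. No gain was called by edgeR or DESeq2, and no promoter of the list was higher at an unadjusted p under 0.05. The 25 genes of mesoderm, endoderm and trophoblast had no members among only 42 such distal peaks, a number in which the 3.65% over all peaks would give few. For their 9 promoter peaks neither edgeR nor DESeq2 called a change at 48 h, with 1 higher and 2 lower at an unadjusted p under 0.05.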

How the data were processed

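H3K27ac ChIP-seq of A2lox-NeuroD1 mouse ES cells was taken at 0 h, 12 h and 48 h, with 2 libraries per time point. The authors aligned reads to mm10 with Bowtie2, handled them with SAMtools 0.1.19, used MACS2 with Input as control to call peaks, merged them across libraries and took the reads in each with QuasR. The deposited unit is raw read counts, not normalised. The Input library was not used here.

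Counts were scaled by library total for display, and a pseudocount of 8 was added in the ratio of 48 h to 0 h that ranks members. The steps of the rule and the folds given with an interval have none. Peaks were annotated to protein-coding TSSs of GENCODE M21 (mm10), and bases were read from the mm10 sequence. Peaks were distal when outside 2 kb on either side of a TSS. Calls came from edgeR 4.0.16 (quasi-likelihood test, library totals, all 66841 peaks and all 6 libraries in one fit, no covariate, R 4.3.3), with Benjamini-Hochberg adjusted p under 0.05. Intervals of ratios are exact at 95% and cover counting error only, and reads without molecular identifiers are not independent molecules.

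Named were the 12 members with the largest ratio of 48 h to 0 h, the member with the largest ratio of each gene list, the members with the most reads, the members nearest to the minimum step, and the genes with the most members. A gene's promoter peak was that with the most reads within its TSS windows. The members and the gene lists were chosen with earlier results of these data known. Alternatives were TMM factors, DESeq2 1.42.0, a filter of 10 counts in 2 libraries, a replicate block, an offset on GC content (lowess span 0.3), other limits of the rule, other windows for sites, and leaving out each library.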

Additional observations from a re-analysis of the deposited data

Results flagged for a closer look

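For 20 of the 27 named promoters, H3K27ac at 48 h differed from that at 12 h, which is the difference between the change at 48 h vs 0 h and the change at 12 h vs 0 h. The test was edgeR's quasi-likelihood test (p adjusted by Benjamini-Hochberg over all peaks), and all 20 were higher at 48 h. Over the promoter peak of every gene 34.5% were called higher in this comparison, so that a call alone does not set a promoter apart. The 12 h libraries held the smallest share of reads in promoter peaks, and the part of this in the values was not tested.

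The largest log2 fold changes at 48 h vs 12 h were those of Cplx2 (3.38, adjusted p = 2.53e-06 in edgeR's test), St8sia3 (2.29), Tox3 (2.06), Pou3f2 (2.00) and Zfp608 (1.76). They were followed by Maml3 (1.53), Setbp1 (1.26), Ebf2 (1.24), Pdzrn3 (1.22), Pik3r1 (1.17), Cd40 (1.13), Syt2 (1.11), Ncam1 (1.08) and Nrcam (1.06). Values under 1 were found for Insm1 (0.97), Wdfy3 (0.87), Klf7 (0.79), Sox4 (0.74), Clybl (0.65) and Fbxo8 (0.50, adjusted p = 0.0499 in edgeR's test).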

How the results depend on the processing

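The rule gave 570 peaks with a minimum step of 1.5 and between 1030 and 1939 when read on 1 replicate alone, against 1034. TMM factors gave 1157 and the GC offset 1192, which held 82.9% of the members. CAGATG was found in 74.0% of members over the whole peak and in 22.7% over 200 bp, against 48.1% (all distal peaks of at least 20 reads 54.8%, 13.4% and 30.5%). Over all peaks, 6638 gained at 12 h vs 0 h, 7162 gained between 12 h and 48 h, and 5723 gained at 48 h vs 0 h. DESeq2 gave 4089, 4361 and 3582, and leaving out 1 library gave 1459 to 3082, 680 to 12995 and 1642 to 8267. Gains and losses split as 6638 and 4028 at 12 h vs 0 h, 7572 and 2637 with TMM factors, and 4089 and 1110 with DESeq2. Over the whole course they were 5723 and 3642, 6476 and 2705, and 3582 and 976. Of the 621 promoters, 237 gained by 48 h and 58 by 12 h with the GC offset, and 43 to 306 and 10 to 18 without 1 library, with 1 to 22 lost at 12 h. The causes of these shifts were not tested.

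The labels do not say whether equal replicate numbers pair libraries across time points. Over all peaks, the deviations of such libraries from their group means had correlations of -0.04, -0.05 and 0.08. Many peaks hold few reads, and counting noise was not taken out, so these values do not decide it. With the replicate number as a block, the counts were 6900, 7179 and 5963 peaks and 134 promoters, and the Pdzrn3 promoter became called at 48 h vs 0 h (adjusted p = 0.0472 in edgeR's test).

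Some uncalled promoter changes near 0 turned sign. These were Map2 at 48 h with the block (-0.018), Skap2 at 48 h with TMM factors or DESeq2 (0.041 and 0.036), and Pdzrn3 (0.14), Susd6 (0.0085) and Tox3 (0.34) at 12 h with the GC offset. Without 1 library the log2 fold changes at 12 h ran from -0.054 to 0.56 for Cplx2, -0.20 to 0.048 for Fbxo8, -0.10 to 0.58 for Id4, -0.095 to 0.14 for Setbp1, -0.35 to 0.11 for Sox4, -0.19 to 0.077 for Susd6, -0.15 to 0.58 for Syt2 and -0.22 to 0.070 for Tox3. At 48 h vs 0 h they ran from -0.060 to 0.26 for Glod4, -0.69 to 0.55 for Map2 and -0.16 to 0.10 for Skap2. A member had a median of 45.7 reads per library, and 312 members had under 30.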

Other observations

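Members were not spread evenly over the chromosomes. Chromosome 18 held 55 of 859 distal peaks of at least 20 reads that were members (6.40%), chromosome X held 10 of 866 (1.15%), and chromosome Y none of 131. A protein-coding TSS was the measure of distance throughout, and 59 members (5.71%) lay within 2 kb of a noncoding TSS, against 5.03% of all distal peaks of that depth.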
